A study of Mus musculus with 16 samples.

Results

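Open chromatin was examined at 8 genes that encode surface proteins of the Ly6 family or antigens used to sort progenitor cells: Ly6a, Ly6c1, Ly6d, Ly6e, Ly6k, Psca, Cd24a and Prom1. Overlapping peaks (1 bp or more) from the 16 libraries formed 86616 merged regions. Those whose closest protein-coding gene body, up to 100 kb away, was one of the 8 were kept, which gave 47 regions. Ly6e had 13 regions, Ly6c1 had 11, Cd24a had 8, Ly6a had 6, Prom1 had 4, Psca had 3, and Ly6d and Ly6k had 1 each. A library that had a peak in a region is said to have called it.

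The libraries were made by ATAC-seq, in which a transposase cuts accessible DNA, from mouse prostate organoids. Organoids labelled Control (normal) or SPOPmut, which carry mutant SPOP, received 10 nM dihydrotestosterone (DHT, an androgen) or ethanol (EtOH), the vehicle, during 24 h in organoid medium that lacked mEGF. SPOP is the substrate adaptor of a cullin-based ubiquitin ligase, and it is often mutated in prostate cancer. There were 4 groups of 4 libraries, namely Control EtOH, Control DHT, SPOPmut EtOH and SPOPmut DHT, and every library carried the label sgNT. The labels name neither the SPOP allele nor the origin of the organoid lines, so the p-values reflect the spread among libraries, which may be technical. The lists held between 57245 and 69644 peaks, and they hold no read counts, so the depth behind a call is unknown.

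Ly6 proteins are small proteins with a disulfide-stabilised fold that are mostly held on the cell surface by a lipid anchor, and many of their genes lie side by side on mouse chromosome 15. Ly6a encodes Sca-1, a marker used to enrich blood stem cells and progenitor cells of the prostate epithelium. Psca encodes prostate stem cell antigen, and Cd24a and Prom1 encode CD24 and prominin-1 (CD133), which are also used to sort epithelial progenitors.

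In mm10, the build of the files, 6 of the 8 genes lay on chromosome 15. Psca occupied chr15:74714839-74717065, Ly6d chr15:74762056-74763567, Ly6k chr15:74796874-74799968, Ly6e chr15:74955025-74959904, Ly6a chr15:74994877-74998031 and Ly6c1 chr15:75044018-75048920. Cd24a lay at chr10:43579169-43584265 and Prom1 at chr5:43993621-44102047. The annotation used gives gene ends only, so exons, introns and untranslated parts were not analysed here. Of the 47 regions, 35 were on chromosome 15 and 9 had their midpoint inside the gene body.

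Promoter sequence was in hand for 2 of the 8 genes, Ly6c1 and Prom1. They are shown because the first start of Ly6c1 lay in a region called in every library and no library had a peak at the starts of Prom1. The same bases of Ly6c2, a close relative in the cluster, show how alike neighbouring copies are. Each line holds the 250 bases before the first listed transcript start, 5′ to 3′ on the minus strand, from RefSeq (GRCm38.p6). The starts used, 75048837 for Ly6c1 and 44101736 for Prom1, lay inside the gene bodies given above. The Prom1 window thus lay wholly inside its gene body, and the Ly6c1 window overlapped the upper end of its body. Capitals mark matches on either strand to 7 motifs that were searched.
Ly6c1, chr15:75048838-75049087: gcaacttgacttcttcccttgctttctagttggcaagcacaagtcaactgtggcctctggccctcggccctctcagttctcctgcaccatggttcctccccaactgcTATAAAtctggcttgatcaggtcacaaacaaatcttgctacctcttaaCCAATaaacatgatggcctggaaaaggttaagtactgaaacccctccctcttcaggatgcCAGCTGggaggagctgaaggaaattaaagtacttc
Ly6c2, chr15:75111972-75112221: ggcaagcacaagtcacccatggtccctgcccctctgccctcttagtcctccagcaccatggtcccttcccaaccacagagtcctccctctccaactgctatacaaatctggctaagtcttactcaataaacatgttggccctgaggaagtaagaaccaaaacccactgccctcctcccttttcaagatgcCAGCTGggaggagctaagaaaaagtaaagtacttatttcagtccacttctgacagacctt
Prom1, chr5:44101737-44101986: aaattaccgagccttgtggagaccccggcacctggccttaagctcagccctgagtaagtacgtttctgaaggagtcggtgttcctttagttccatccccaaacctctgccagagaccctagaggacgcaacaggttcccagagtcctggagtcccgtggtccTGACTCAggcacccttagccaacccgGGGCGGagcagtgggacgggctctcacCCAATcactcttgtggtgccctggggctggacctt

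The motifs searched were TGANTCA (AP-1), TGTTTAC (forkhead), AGAACA (a part of the androgen receptor site), GGGCGG (GC box), CCAAT (the CCAAT box), TATAAA (the TATA box) and CAGCTG (an E-box). The Ly6c1 window held TATAAA at -143, CCAAT at -95 and CAGCTG at -35 from the start. The Ly6c2 window held CAGCTG alone, at -60. The Prom1 window held TGANTCA at -88, GGGCGG at -62 and CCAAT at -35. Over all 32851 windows of that length, TATAAA stood in 12.4%, CCAAT in 33.8%, CAGCTG in 13.0%, TGANTCA in 6.75%, GGGCGG in 32.7%, AGAACA in 16.1% and TGTTTAC in 3.17%. A match describes the letters only. A local alignment of the Ly6c1 and Ly6c2 windows had 170 identical bases, 39 mismatches and 24 gapped positions (73.0% identical). Whether reads of such related copies were split between them or lost in alignment was not measured, so values at single genes of the cluster carry that uncertainty. The region over the Ly6c1 window was called in 4 of 4 libraries of each group. The nearest region to the Ly6c2 start was 1856 bp from that start, and the nearest to the Prom1 start was 3456 bp from it.

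The comparison of genotypes asks where chromatin of SPOPmut organoids differed from that of Control organoids. Over the 47 regions, Control libraries with EtOH had 22 to 31 called, Control DHT 27 to 32, SPOPmut EtOH 31 to 37 and SPOPmut DHT 35 to 40. Regions called in a single library (5 of the 47) were set aside, which left 42 regions and 6 genes with at least 2 regions. The number of called regions rose in SPOPmut at 4 of the 6 genes (Ly6a, Ly6c1, Psca and Cd24a) and fell at 0 of 6. Each passed an exact permutation test within treatment (two-sided, Benjamini-Hochberg over 11209 genes). Among all genes tested, 19.4% were higher in SPOPmut and 12.1% lower. Of the genes on chromosome 15, 38.7% were higher and 4.02% lower. The median difference of the 6 genes was 1.69 called regions, against 0 for all genes.

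**Figure D1:**
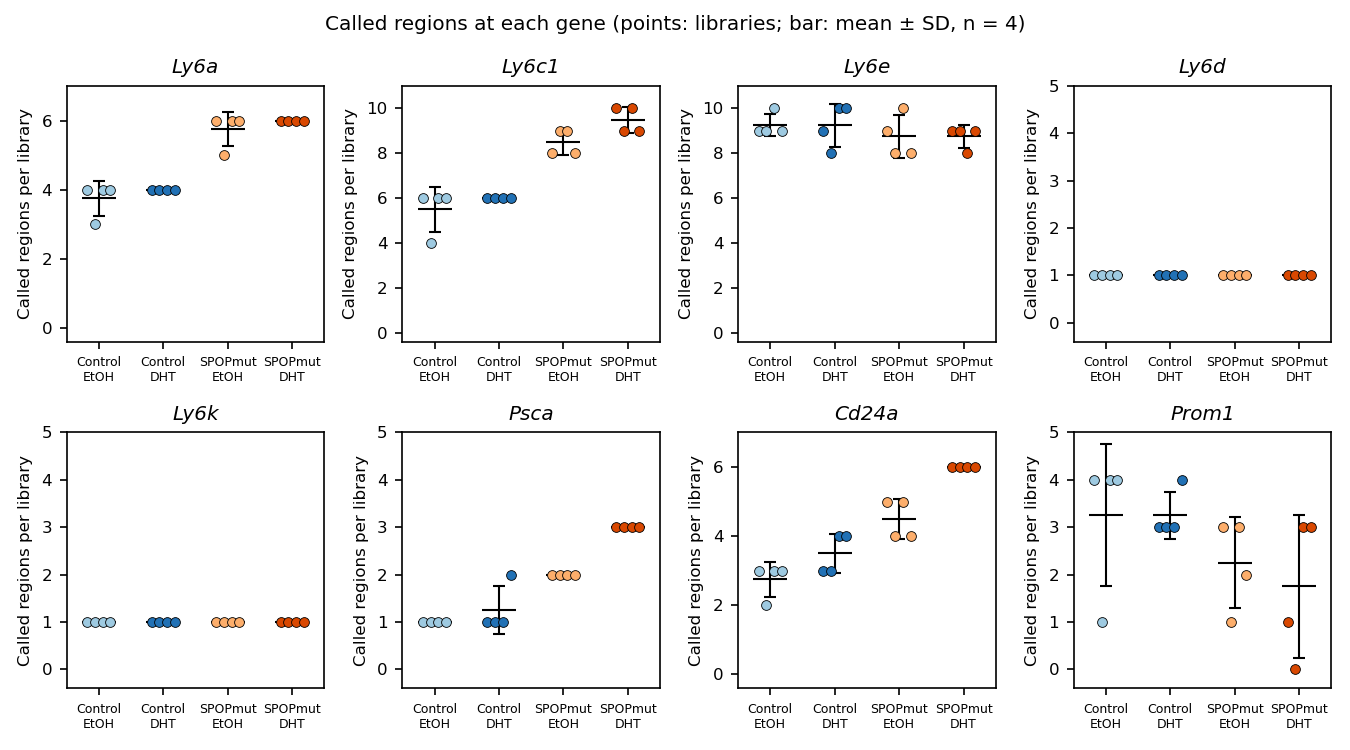
Called regions per library (y axis) in the 4 groups (x axis) at each of the 8 genes. Points are libraries, bars the mean ± SD of 4 libraries. At Ly6a, Ly6c1, Psca and Cd24a the SPOPmut libraries of each treatment sat above the Control libraries of that treatment, and Ly6d and Ly6k had 1 region in every library.

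At Ly6a, the Control libraries with EtOH had 4, 3, 4 and 4 called regions and those with DHT had 4 each. The SPOPmut libraries with EtOH had 6, 5, 6 and 6, and those with DHT had 6 each. The genotypes did not overlap. The difference was 2 called regions (n = 8 libraries a genotype, exact permutation p = 0.000408, the smallest this design can give, adjusted p = 0.00325). Most of it lay in a pair of regions just beyond the upper end of the gene. The first, chr15:75001148-75001886, was called in 0 of 8 Control and 8 of 8 SPOPmut libraries (exact stratified test, adjusted p = 0.00961). The second, chr15:75002903-75003322, was called in 0 Control libraries, 3 SPOPmut libraries with EtOH and 4 with DHT (exact stratified test, adjusted p = 0.0292). With only the upper 75% of each list by -log10 p, the difference at Ly6a was 1 called region and did not pass (exact permutation, adjusted p = 0.0928).

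The region over the upper end of Ly6a (chr15:74995146-75000047) was called everywhere and had the highest median rank of its 6 regions, although in each EtOH library the region chr15:74991817-74993058 ranked above it. Its strength was read as the percentile of its summit -log10 p, the authors' peak caller value, among the 39300 regions called in all 16 libraries. That percentile was 70.4 ± 4.27 in Control EtOH, 90.2 ± 1.64 in Control DHT, 88.0 ± 2.08 in SPOPmut EtOH and 97.4 ± 0.765 in SPOPmut DHT (SD, n = 4). The ranges of the groups were apart by genotype within each treatment and by treatment within each genotype. A weaker region 21700 bp beyond the gene (chr15:75019425-75020036) had the same pattern at a lower level, with percentiles of 2.16 to 9.38, 11.7 to 21.4, 20.6 to 25.2 and 38.7 to 49.2 in the same order.

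At Ly6c1, whose product is best known from monocytes and endothelial cells, the Control libraries with EtOH had 6, 4, 6 and 6 called regions and those with DHT had 6 each. The SPOPmut libraries had 8, 9, 9 and 8 with EtOH and 10, 9, 10 and 9 with DHT. All SPOPmut libraries were above all Control libraries, by 3.25 regions on average (exact permutation, adjusted p = 0.00325). Within 10 kb of the gene body the difference was 1.88 regions and still passed (exact permutation, adjusted p = 0.00394). A region inside the gene, chr15:75046399-75047128, and one 23778 bp beyond it, chr15:75072424-75072971, were each called in 0 of 8 Control and 8 of 8 SPOPmut libraries (exact stratified test, adjusted p = 0.00961 each). A neighbour inside the gene, chr15:75047344-75048417, was called in 0 Control libraries, 2 SPOPmut libraries with EtOH and 4 with DHT, and did not pass (exact stratified test, adjusted p = 0.0695).

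The region over the start of Ly6c1 (chr15:75048531-75050943), which holds the promoter window printed above, ranked higher with DHT. Its mean percentile was 64.3 ± 3.17 in Control EtOH and 89.0 ± 2.84 with DHT. In SPOPmut it was 82.6 ± 1.65 with EtOH and 97.3 ± 0.563 with DHT (SD, n = 4). No 2 of the groups that differ in 1 factor overlapped. A region 14543 bp beyond the gene (chr15:75063139-75063787) went the other way with DHT: 24.9 to 33.8 in Control EtOH against 12.1 to 17.2 with DHT, and 43.2 to 56.9 in SPOPmut EtOH against 27.9 to 35.1 with DHT. Regions of 1 gene thus ranked higher or lower with DHT.

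**Figure D2:**
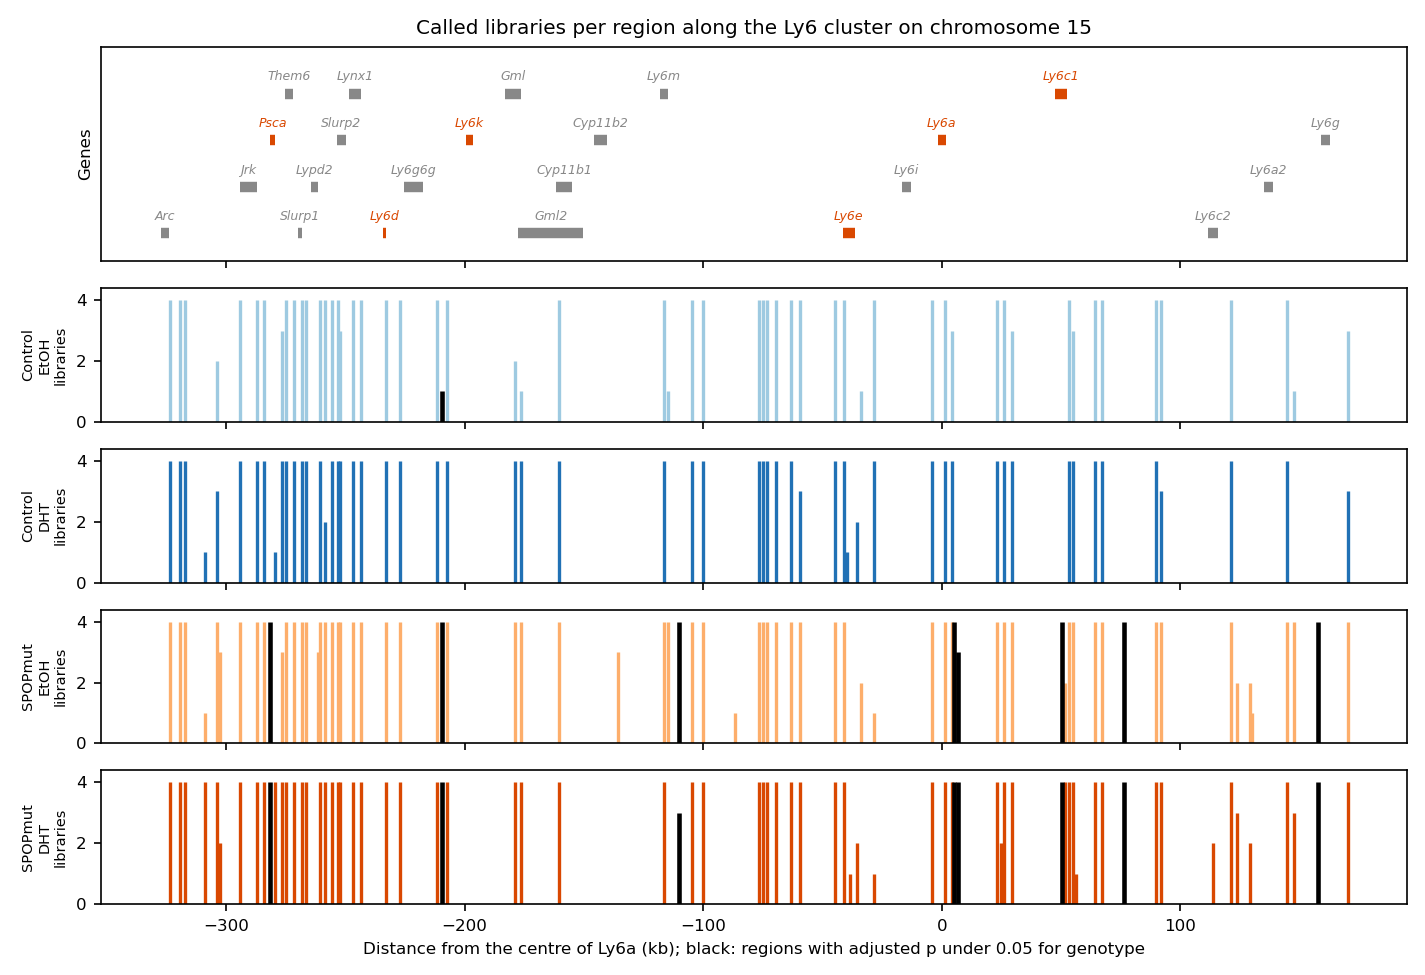
Called libraries (y axis, of 4) for every merged region from Arc to Ly6g, a stretch with a part of the Ly6 cluster. The x axis gives the distance from the centre of Ly6a in kb. Genes are drawn above (orange: the 6 genes on chromosome 15 described here). Black lines passed the genotype test, and they include regions nearest Ly6g6g, Ly6m and Ly6g, which are not among those 6 genes. The regions at Ly6a, inside and beyond Ly6c1 and at the lower end of Psca stood at 0 in Control and at 3 or 4 in SPOPmut.

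At Psca, a lipid-anchored antigen of prostate, bladder and stomach epithelium, the Control libraries had 1 called region each, save for 1 library with DHT that had 2. The SPOPmut libraries had 2 each with EtOH and 3 each with DHT. The mean difference between genotypes was 1.38 regions (exact permutation, adjusted p = 0.00325). The region over the lower end of the gene, chr15:74714504-74715103, was called in 0 of 8 Control and 8 of 8 SPOPmut libraries (exact stratified test, adjusted p = 0.00961). The region over the upper end, chr15:74716335-74717409, was called in 0 libraries of both genotypes with EtOH, in 1 Control library with DHT and in 4 of 4 SPOPmut libraries with DHT. In those SPOPmut libraries it stood at the 72.5 to 77.9 percentile of the list, and in the Control library at 15.2.

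The Psca region called in every library lay 2432 bp below the gene (chr15:74711761-74713053). Peaks covered 309 to 328 bp of it in Control EtOH, 346 to 477 bp in Control DHT, 652 to 1049 bp in SPOPmut EtOH and 981 to 1243 bp in SPOPmut DHT. Its mean percentile in the common set was 18.9 ± 2.97, 23.2 ± 6.22, 45.8 ± 4.09 and 62.5 ± 8.61 in that order. Both measures were apart between genotypes within each treatment.

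At Cd24a, which encodes a small, heavily glycosylated antigen of luminal and other epithelial cells, the Control libraries had 3, 2, 3 and 3 called regions with EtOH and 3, 3, 4 and 4 with DHT. The SPOPmut libraries had 5, 4, 5 and 4 with EtOH and 6 each with DHT. The difference by genotype was 2.12 regions (exact permutation, adjusted p = 0.00325), with no overlap within a treatment. It was 1 region with a distance limit of 25 kb (adjusted p = 0.0125, exact permutation) and 1 within 10 kb of the gene body (0.014). A region inside the gene, chr10:43580419-43581204, was called in 1 of 8 Control and 8 of 8 SPOPmut libraries (exact stratified test, adjusted p = 0.0292). The Control call ranked at the 0.901 percentile of its list, and the SPOPmut calls at 33.5 to 55.8. One 78300 bp beyond the gene, chr10:43662351-43662779, was called in the 4 SPOPmut libraries with DHT and in no other library, at a median percentile of 3.47. The region over the lower end of the gene, chr10:43577506-43580387, was called in all libraries and its ranks overlapped between all groups. A distal region, chr10:43657336-43658106, ranked lower in SPOPmut, at 31.4 to 38.0 against 69.5 to 78.5 with EtOH and at 46.4 to 52.0 against 75.8 to 90.1 with DHT.

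Ly6e, a broadly expressed member known for its part in virus entry, had the most regions and no difference that passed. Control libraries had 9, 9, 10 and 9 called regions with EtOH and 9, 8, 10 and 10 with DHT. SPOPmut libraries had 9, 8, 10 and 8 with EtOH and 9, 9, 8 and 9 with DHT. The mean difference was -0.5 regions (exact permutation, adjusted p = 0.542). The region chr15:74967546-74968780, beyond its upper end, was called in 8 of 8 Control libraries at the 57.4 to 69.5 percentile and in 2 of 8 SPOPmut libraries, at 9.10 and 7.97 (exact stratified test, adjusted p = 0.104). It passed as lower in SPOPmut with the upper 75% of each list (adjusted p = 0.00936, exact stratified test), with lists of equal length (0.00876) and where peaks had to cover at least 50% of a region's bases (0.00877). The strongest Ly6e region, over the lower end of the gene (chr15:74954056-74956475), ranked at 91.8 in Control and 97.0 in SPOPmut on average with EtOH, and at 92.1 and 97.7 with DHT.

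Ly6d and Ly6k had 1 region each, called in all 16 libraries, so their counts could not be tested under this assignment. When all regions within 10 kb of the gene body were counted instead, Ly6d had 3 in every library. Ly6k then gained a region whose nearest gene is Ly6g6g, chr15:74786570-74787166, called in 1 of 8 Control and 8 of 8 SPOPmut libraries. With it, Ly6k passed with a difference of 0.875 regions (exact permutation, adjusted p = 0.0121). The Ly6d region, chr15:74760411-74766390, spanned the whole gene and had the highest rank of the 47, with within-list percentiles of 98.2 to 99.8. Ly6d marks progenitor-like luminal cells in mouse prostate. Peaks covered 3224 to 4067 bp of this region in Control EtOH, 3582 to 4067 bp in Control DHT, 5443 to 5702 bp in SPOPmut EtOH and 5585 to 5717 bp in SPOPmut DHT. Every SPOPmut library thus covered more of it than every Control library. The Ly6k region, chr15:74787902-74789805, lay 8020 bp below the gene. Its mean percentile was 81.9 in Control EtOH, 80.2 in Control DHT, 90.5 in SPOPmut EtOH and 91.0 in SPOPmut DHT.

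Prom1 had no region inside its gene body of 108427 bp. Its 4 regions lay outside, and 0 of them was called in all 16 libraries. Control libraries had 4, 1, 4 and 4 called with EtOH and 3, 3, 3 and 4 with DHT. SPOPmut libraries had 3, 1, 3 and 2 with EtOH and 1, 0, 3 and 3 with DHT. The groups overlapped, and the difference of -1.25 regions did not pass (exact permutation, adjusted p = 0.175). Without the second Control library with EtOH, which had the shortest list, it was -1.62 and passed (adjusted p = 0.0395, exact permutation). With lists of equal length it was -2.25 and also passed (adjusted p = 0.00712, exact permutation). The best-ranked region, chr5:44118064-44118331, was called in 3 Control libraries with EtOH, 2 with DHT and 0 of 8 SPOPmut libraries (exact stratified test, adjusted p = 0.169), with a median percentile of 29.8 where called.

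**Figure D3:**
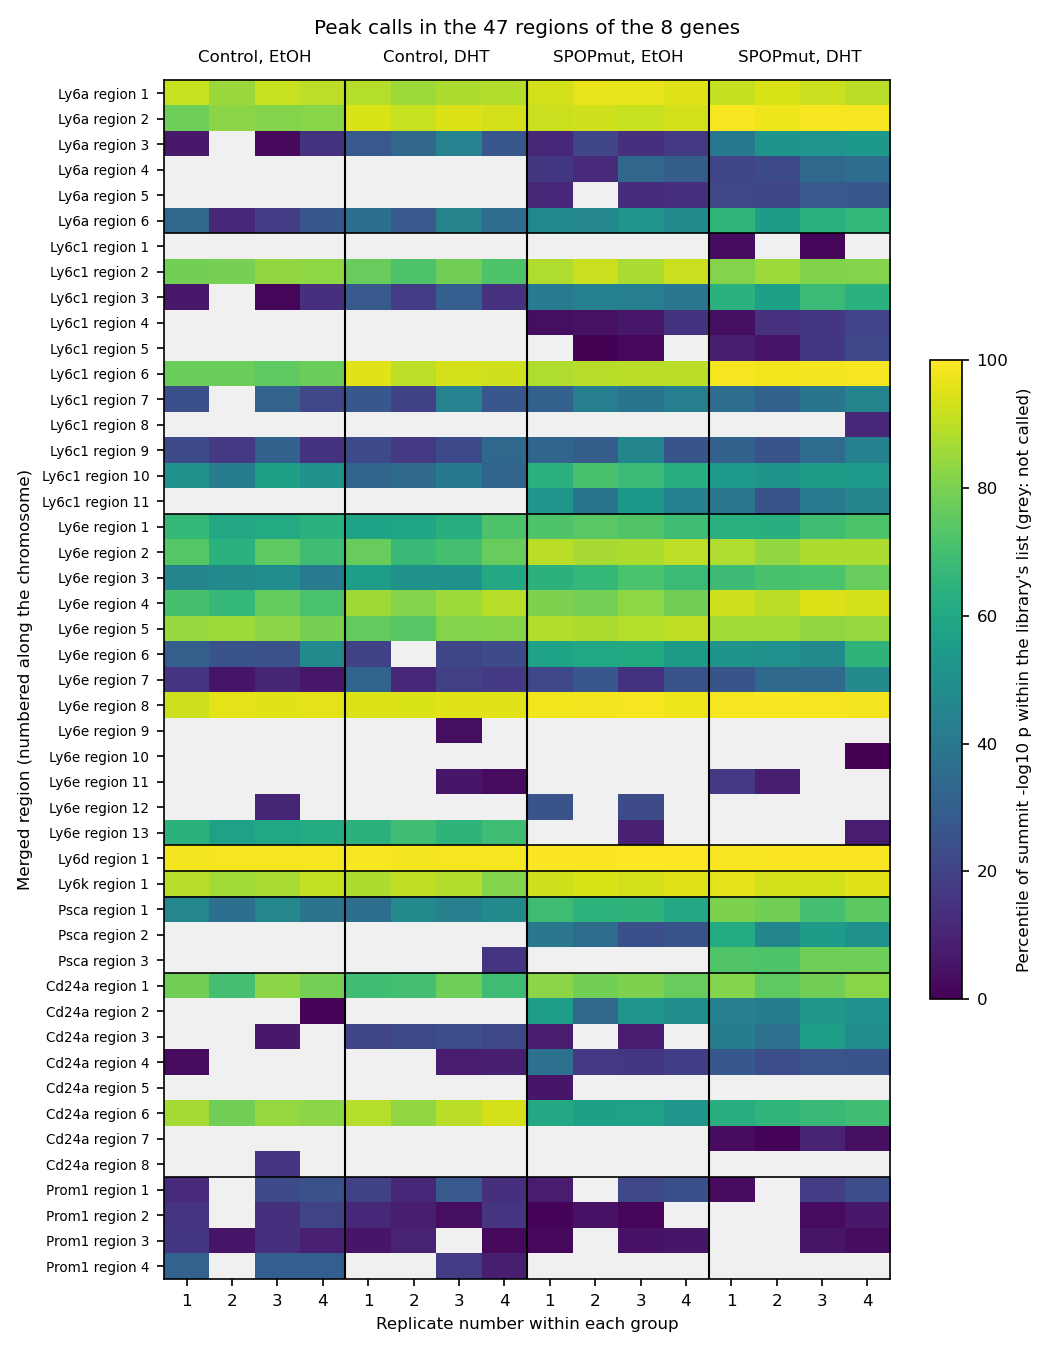
Each row is 1 of the 47 regions, numbered along the chromosome, and each column is 1 of the 16 libraries by group and replicate. Colour gives the percentile of the peak's summit -log10 p within its list, and grey means no call. Rows filled in SPOPmut columns and grey in Control columns appear at Ly6a, Ly6c1 and Psca. Cd24a region 2 is filled in the SPOPmut columns and in 1 Control column. The Prom1 rows are dark, and none is filled in all 16 columns.

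Region by region, 6 of the 42 tested were called more often in SPOPmut and 0 less often (exact stratified test, Benjamini-Hochberg over 80352 regions). They were the pair beyond Ly6a, the region inside and the one beyond Ly6c1, the lower end of Psca and the interior of Cd24a. Over all regions, 3.76% were called more often and 3.23% less often. On chromosome 15 these shares were 6.9% and 1.51%. In chr15:75000001-76000000, which holds the pair beyond Ly6a and both Ly6c1 regions, 12 of 94 regions were called more often and 0 less often. In chr15:74000001-75000000, with the lower end of Psca, it was 6 and 1 of 91. With EtOH, 4 of the 42 had a call in each SPOPmut library and in none of the Control libraries, and 0 the reverse, against 4.84% and 4.36% of all regions. With DHT it was 8 and 0, against 6.41% and 4.22%. For 4 libraries against 4 the smallest exact p is 0.0286, so these counts carry no adjusted p.

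Chromosome 15 as a whole held more of the calls of SPOPmut libraries. It took 5.02% ± 0.0486 of the called regions in SPOPmut and 4.27% ± 0.0277 in Control (SD, n = 8, exact permutation p = 0.000408), which is 17.6% more. Chromosome 10, with Cd24a, took 4.997% against 5.46%, and chromosome 5, with Prom1, 5.86% against 6.30% (n = 8, exact permutation p = 0.000408 each). Copy number was not measured, and the part of this shift in the results for the 6 genes on chromosome 15 was not tested further than by subtraction. When the number predicted from the chromosome's call rate in each library was subtracted, the difference was 1.15 regions at Ly6a, 1.83 at Ly6c1, 0.948 at Psca and 2.36 at Cd24a, and each passed (exact permutation, adjusted p = 0.00201). Ly6e then differed by -2.06 regions, lower in SPOPmut, and passed as well (exact permutation, adjusted p = 0.00201). Its sign was not stable: it was 0.25 with the upper 75% of each list and 0.625 with at least 50% of a region covered, and neither passed (exact permutation, adjusted p = 0.872 and 0.302). The rate subtracted was that of the whole chromosome, and parts of it differed. In chr15:75000001-76000000, with Ly6c1 and the pair beyond Ly6a, Control had 54.75 of 94 regions called on average and SPOPmut 81.75. In chr15:74000001-75000000, with the other genes, it was 64.5 and 72.75 of 91. The part of this local shift in the differences at single genes was not tested.

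**Figure D4:**
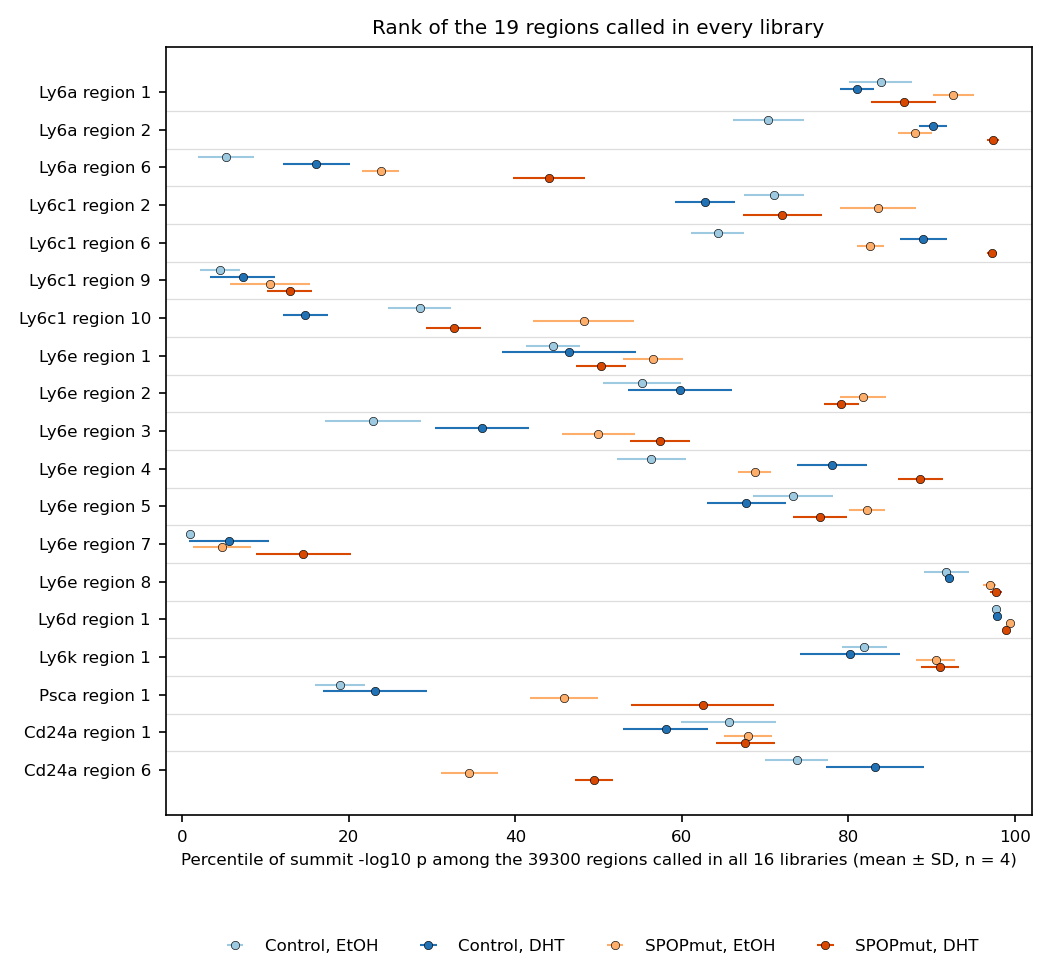
Percentile of summit -log10 p (x axis) of the 19 regions called in every library, among the 39300 regions called in every library. Points are means and bars SDs of 4 libraries a group. Most regions of the Ly6 cluster and Psca lay further right in SPOPmut, Cd24a region 6 lay further left, and Cd24a region 1 overlapped between groups.

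Of the 42 tested regions, 19 were called in all 16 libraries (45.2%, against 48.9% of all tested regions). Their ranks were compared as ranges of 4 libraries, with no test. With EtOH, 15 of the 19 ranked higher in every SPOPmut library than in any Control library and 1 lower, against 24.2% and 23.4% of all 39300. With DHT it was 13 and 1, against 25.2% and 25% of all. On chromosome 15, where 17 of the 19 lay, 59.4% of regions ranked higher and 7.9% lower with EtOH, 59.1% and 8.84% did so with DHT, and the Ly6 and Psca regions gave 15 of 17 and 13 of 17. Covered bases gave 10 higher and 0 lower of 19 with EtOH, against 13% and 10.8% of all and 33% and 3.35% on chromosome 15. With DHT they gave 9 higher and 1 lower, against 16.1% and 12.2% of all and 38.2% and 4.45% on chromosome 15. The single lower region was the distal one of Cd24a.

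The comparison of DHT with EtOH asks which regions were called with androgen and not without, or the reverse. Called regions rose at 1 of the 6 genes and fell at 0, against 5.42% and 3.14% of all genes tested. That gene was Cd24a, by 1.12 regions (0.75 in Control and 1.5 in SPOPmut, exact permutation, adjusted p = 0.0477). The call was close to the threshold. It was lost without the second Control library with EtOH (adjusted p = 0.0514, exact permutation), the third with DHT (0.0669) or the fourth with DHT (0.0666), and when the distance limit was 25 kb (a difference of 0.5, adjusted p = 0.342, exact permutation) or the upper 75% of each list was used (0.75, adjusted p = 0.244). The Cd24a region chr10:43593298-43593932, which did not pass, was called in 1 of 4 Control libraries with EtOH and 4 of 4 with DHT, and in 2 and 4 of the SPOPmut libraries (exact stratified test, adjusted p = 0.2803).

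Psca differed by 0.625 regions between DHT and EtOH (exact permutation, adjusted p = 0.0976), Ly6c1 by 0.75 (0.315), Ly6a by 0.25 (0.912), Ly6e by 0 (1) and Prom1 by -0.25 (1). With the chromosome's call rate subtracted, Psca was 0.646 regions higher with DHT and passed (exact permutation, adjusted p = 0.0262). None of the 42 regions passed the exact stratified test for DHT, against 1.77% of all regions, and 3 had an unadjusted p under 0.05. Regions called in all DHT libraries and no EtOH library numbered 0 of 42 in Control, against 2.93% of all regions. In SPOPmut there were 2, the upper end of Psca and the distal Cd24a region, against 4.7% of all. Those 2 are 4.76% of the 42, a share close to the background. No region was called with EtOH alone in all libraries of either genotype, against 1.96% and 1.98% of all.

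The ranks of the regions called everywhere differed in both directions between DHT and EtOH. In Control, 5 of the 19 ranked higher with DHT and 1 lower, against 12.1% and 15.2% of all 39300. In SPOPmut it was 8 and 3, against 13% and 18.3%. On chromosome 15 these shares were 12.7% and 14.6% in Control and 14.5% and 20.4% in SPOPmut. The Ly6d region was among the lower ones in SPOPmut, at 98.6 to 99.2 with DHT against 99.2 to 99.6 with EtOH. A region 27889 bp below Ly6e (chr15:74926561-74927710) had a mean percentile of 56.3 with EtOH and 78.0 with DHT in Control, and of 68.8 and 88.6 in SPOPmut. Covered bases gave 3 higher and 0 lower of 19 in each genotype, against 6.22% and 6.67% of all in Control and 8.38% and 8.3% in SPOPmut. On chromosome 15 the shares were 7.14% and 6.42% in Control and 8.51% and 7.85% in SPOPmut.

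Whether DHT acted differently in the genotypes was tested by permuting treatment within genotype. The DHT effect was larger in SPOPmut by 0.75 regions at Psca (exact permutation p = 0.257), by 0.75 at Cd24a (p = 0.522) and by 0.5 at Ly6c1 (p = 0.771). The difference of the effects was 0 at Ly6a, 0 at Ly6e and -0.5 at Prom1 (exact permutation p = 0.822 for Prom1). None of the 6 genes passed, none had an unadjusted p under 0.05, and 0 of the 11209 genes passed, so the background is 0% as well. This permutation assumes no DHT effect in either genotype. A gene whose counts varied in 1 genotype alone could reach no exact permutation p below 0.0286, the smallest for 4 libraries against 4. The lack of passing genes therefore does not show that DHT acted alike in the genotypes. The result at the upper end of Psca, called with DHT in all SPOPmut libraries and 1 Control library, is shown neither to differ between genotypes nor to be alike.

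Other genes of the Ly6 cluster on chromosome 15 were read from a list of 16, of which 15 matched the annotation and 11 could be tested. By genotype, 5 of the 11 rose in SPOPmut and 0 fell. Ly6f had 4.5 called regions in each Control group on average, 8 in SPOPmut EtOH and 7.25 with DHT. Ly6g, a granulocyte marker, had 1.75 on average in each Control group and 4 in each SPOPmut library. Ly6g2 rose by 2.25 and Ly6l by 2.12 regions (exact permutation, adjusted p = 0.00325 and 0.0154). Lynx1 and Slurp1 had 2 regions in every library. No gene of the list passed for DHT. The share of 5 in 11 compares with 38.7% of all genes on chromosome 15.

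Of 19 listed Ly6 and uPAR domain genes outside that list, 7 could be tested, 5 rose in SPOPmut, 0 fell, and none passed for DHT, where 19.4% of all genes rose by genotype and 12.1% fell. Lypd6b rose by 2.75 regions, Lypd6 by 1.75 and Lypd3 by 1. Lypd6b and Lypd6 lie on chromosome 2, where 40.4% of the genes rose and 4% fell, as does Cd59a, which rose by 0.875. Ly6g6g, which rose by 0.875, lies on chromosome 15 in this annotation. Plaur, the urokinase receptor, had 5 regions in every library.

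Among 18 other surface antigens of progenitor cells, 16 could be tested, 7 rose in SPOPmut and 2 fell, against the 19.4% and 12.1% of all genes. Lgr4, an R-spondin receptor, rose by 7.12 regions, Cd44 by 4.5, Itga6, an integrin of basal cells, by 4.5 and Cd9 by 2.62. Lgr4, Cd44 and Itga6 all lie on chromosome 2. Lgr6, another receptor of that family, fell by 8.75 regions (exact permutation, adjusted p = 0.00325). With DHT, Nt5e rose by 3.38 regions and Lgr6 fell by 3 (exact permutation, adjusted p = 0.0206 and 0.0477), and the other 14 did not pass. Kit had no region.

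The libraries carried open regions at epithelial markers throughout, summed over Epcam, Cdh1, Esrp1 and Grhl2. Called regions were 46 to 52 in Control EtOH, 50 to 53 in Control DHT, 47 to 52 in SPOPmut EtOH and 53 to 60 in SPOPmut DHT. Of the 4, Grhl2 on chromosome 15 alone passed. It rose by 3.125 regions in SPOPmut (exact permutation, adjusted p = 0.0098) and by 3.125 with DHT (0.0256), where 5.42% of all genes rose with DHT. Luminal markers, summed, had 30 to 37 called regions in Control EtOH, 34 to 35 in Control DHT, 40 to 45 in SPOPmut EtOH and 40 to 46 in SPOPmut DHT. Of 6 tested, 4 rose (Krt8, Krt18, Krt19 and Foxa1), against 19.4% of all genes and, for Krt8 and Krt18 on chromosome 15, 38.7% of the genes there. Basal markers had 44 to 47, 50 to 57, 44 to 47 and 47 to 50 in the same order, with Krt14 higher and Trp63 lower by genotype. Trp63 was also higher with DHT, by 4.375 regions (exact permutation, adjusted p = 0.0256), and the other 4 basal markers did not pass for DHT. Endothelial markers had 26 to 29, 23 to 26, 17 to 19 and 13 to 19, and 3 of 4 tested fell, against 12.1% of all genes. Immune markers had 9 to 11, 6 to 9, 10 to 12 and 11 to 14, with Ptprc higher and with Cd79a and Lyz2 at 0. Stromal markers had 20 to 25, 20 to 25, 18 to 21 and 14 to 20, with Twist2 higher, Dcn and Zeb1 lower and Col1a2 at 0. The part of these shifts in the results at the 8 genes was not tested, and in bulk libraries more cells of a type and more open chromatin per cell cannot be told apart.

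Genes with the most similar pattern of called regions were sought over the 16 libraries, which share the design and the list lengths, so r is a description. For Ly6a they were Kdm3b (r = 0.97), Tes (0.97) and St3gal4 (0.97). Those of Ly6c1 were Sidt2 (r = 0.97), Spink5 (0.96) and Ttpal (0.96). Psca was most like Selenop (r = 0.98), Fam205a1 (0.96) and Crisp3 (0.96). Cd24a was most like Tank (r = 0.98), Kctd12b (0.96) and Hipk3 (0.96). Such patterns were common: 371 genes reached r of at least 0.9 with Ly6a, 302 with Ly6c1, 144 with Cd24a and 112 with Psca.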

How the data were processed

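ATAC-seq peak lists of 16 libraries were used. Per the submitters' processing notes, Bowtie2 2.3.4.1, SAMtools 1.8 and Genrich (version not given in the sources used here) were used with mm10. Each list gives the authors' deposited −log10 p at the peak summit, used here for ranks and thresholds inside each list. Peaks overlapping by at least 1 bp were merged, and a region was assigned by its midpoint to the nearest protein-coding gene body within 100 kb (RefSeq, GRCm38.p6, which has the coordinates of mm10). Regions called in at least 2 libraries were tested by an exact stratified test, and genes with at least 2 such regions by exact permutation over 4900 arrangements. Both were two-sided, with Benjamini-Hochberg correction at 0.05, and were tested on simulated data. The 8 genes are all named, with regions that passed, that separated groups or that ranked highest, the 3 genes most like each passing gene, and up to 4 passing genes per direction of each further list. Ranks and covered bases in the common set were added after seeing the data. The genes and lists were chosen with earlier results of these data known. Python 3.11.15, NumPy 2.4.6, pandas 2.3.3, SciPy 1.17.1 and Matplotlib 3.10.9 were used. Some genes of the further lists are not reported here. Alternatives are given in the closing section.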

Additional observations from a re-analysis of the deposited data

Results flagged for a closer look

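In 9 of the 17 groups of 4 counts that had any spread (of 32 in all), 1 library stood apart from the other 3. Chance gives about 1 such value in 20 groups for continuous data, and with counts a difference of 1 region is enough when the other 3 are equal. The second Control library with EtOH, which has the shortest list, had 3 called regions at Ly6a where the others had 4, 4 at Ly6c1 where the others had 6, 2 at Cd24a where the others had 3, and 1 at Prom1 where the others had 4. The second SPOPmut library with EtOH had 5 at Ly6a against 6. The third Control library with EtOH had 10 at Ly6e against 9. The third SPOPmut library with DHT had 8 at Ly6e against 9. The fourth Control library with DHT had 2 at Psca against 1, and 4 at Prom1 against 3.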

How the results depend on the processing

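The count of genes higher or lower with DHT (1 of 6) was 0 within 25 kb, within 10 kb of the gene body, with at least 50% of a region's bases covered and with regions of 1 library included, and 2 with lists of equal length, with shares of each library's calls and with the chromosome rate subtracted. Leaving out 1 library gave 0 to 1. Regions passing for DHT (0) were 1 with the upper 75% of each list (the region of Ly6a at chr15:75000259-75000968, exact stratified test, adjusted p = 0.0239) and 1 with equal lengths (Cd24a, chr10:43593298-43593932, 0.0212). Regions separated by DHT were 1 in Control under these 2 settings and with that coverage, 0 to 1 when 1 library was left out (1 without the third Control library with EtOH), and 1 in SPOPmut within 25 kb and within 10 kb of the gene body. Regions separated by genotype with EtOH (4) were 7 with that coverage. Genes passing for genotype were 4 to 5, regions passing 6 to 7 and regions separated by genotype 4 to 5 with EtOH and 8 to 9 with DHT when 1 library was left out. Of the 6 regions passing for genotype, 3 were kept with the upper 75% of lists, 4 with equal lengths and 4 with that coverage, each with 1 region lower in SPOPmut. Single genes changed as follows: Ly6a differed by 1.5 with DHT in the upper 75% (adjusted p = 0.0347, exact permutation) and Ly6c1 by 1.25 with equal lengths (0.0401). The 4 genes higher in SPOPmut kept that direction in each setting run. Ly6e was negative in most settings, passed with the chromosome rate subtracted (-2.06), and was positive with the upper 75% (0.25) and with that coverage (0.625). The causes of these changes were not tested.

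With a replicate block, 0 regions passed for genotype (smallest adjusted p 0.184, exact test) and 0 genes for DHT (0.161), and the 4 genes higher by genotype still passed (0.0476). The value of 0.184 is that of a region called in all SPOPmut and no Control libraries. No region could therefore pass with this block, and its count of 0 says nothing on the regions. Libraries with the same number correlated by -0.266 to 0.391 (median 0.116) and others by -0.375 to 0.401 (median -0.0356). The pairs of numbers 2 and 3 were all positive (0.170 to 0.391 and 0.143 to 0.215), those of numbers 1 and 4 were not (-0.120 to 0.0891 and -0.266 to 0.0830), and 6 of 16 libraries correlated best with their own number. The number was therefore not taken as a pairing. Prom1 could not be tested in the upper 75% of lists, where fewer than 2 of its regions remained. Read depth limits all calls and is unknown.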
